A study of Mus musculus with 18 samples.

Results

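The matrix metalloproteinase cluster on mouse chromosome 9 was followed in differentiated 3T3-L1 adipocytes, cells of a mouse fibroblast line that stores fat once differentiated, in which expression of the transcription factor IRF3 had been raised or lowered. The cluster was taken as the gene models lying wholly between 7260000 and 7590000 on chromosome 9 (mouse build mm9) with at least 20 reads summed over the 18 libraries. The interval held 8 gene models of the 27473 in the table, and all 8 met the minimum. Members were thus chosen by position and by their summed counts, which ran from 27 to 36227 and are given as a description.

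Matrix metalloproteinases are secreted zinc-dependent proteases that are made as inactive proenzymes and that cut collagens, proteoglycans and other components of the extracellular matrix. Their activity is held down by the tissue inhibitors of metalloproteinases. The genes named for the interval are Mmp13 (collagenase-3), Mmp8 (neutrophil collagenase), Mmp3 and Mmp10 (stromelysins) and Mmp12 (macrophage elastase). In many connective tissue cells several of them are known to respond to inflammatory signals, and in fat the matrix is rebuilt as adipocytes grow.

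Every group held lentivirus-transduced adipocytes at passage 15, sequenced as 3 libraries. Irf3_2D cells were labelled as overexpressing Irf3, without a statement of what 2D stands for, and EGFP cells carried the green fluorescent protein vector as their control. The shIrf3 cells carried a hairpin RNA against Irf3, and the shLuc cells a control hairpin. Both were sequenced with lipopolysaccharide (LPS, which cells sense through a Toll-like receptor; groups shIrf3_LPS and shLuc_LPS) and without it. Transduction lasted 6 days, and LPS was given for a further 6 days per the protocol, which states this for the knockdown cells. Whether the cells without LPS were kept as long is not given in the sources used here, so LPS and culture time cannot be told apart. The time under LPS is also not given for the shLuc_LPS cells. Comparisons that use them may therefore differ in that time as well. Separate cultures are not stated for the replicates, and the spread behind each p-value may therefore be technical.

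Total counts ran from 22143302 to 34368259 per library. Some libraries stood apart from their group. By a chi-square of their counts over its degrees of freedom, Irf3_2D replicate 2 gave 111.8 and 91.7 against replicates 1 and 3. Replicates 1 and 3 gave 10.8 against each other. Mitochondrial gene models held 14.2% of counts in shLuc replicate 1, 2.88% in shLuc replicate 2 and 5.19% in shLuc replicate 3. Their share in the other 15 libraries was at most 7.17%, in shIrf3 replicate 2. The part of this spread in the results below was not tested, and without the chromosome M gene models the members called were the same in every comparison. The level of Irf3 itself and adipocyte markers were not checked here, since the identifiers are not paired with symbols.

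The gene models carry UCSC identifiers, none of which (0 of 27473) could be found in the gene name tables. The identifier uc009ocg.2 was taken as Mmp13 when the cluster was chosen, and the other 7 members are given by identifier, with no gene name or role assigned. Their positions are those of build mm9. Mmp13 (7272514 to 7283333, 10 exons) comes first, followed by uc009och.1 (7344397 to 7369499, 11 exons), uc009ock.1 (7367670 to 7388026, 10 exons), uc009oco.1 (7445822 to 7455974, 10 exons), uc009ocp.1 (7464141 to 7476869, 11 exons), uc009ocq.1 (7502360 to 7510240, 10 exons), uc009ocr.2 (7558429 to 7568486, 10 exons) and uc009oct.1 (7571458 to 7581393, 9 exons). Of the 8, 7 lie on the plus strand and uc009ock.1 on the minus strand. In the RefSeq gene table of assembly GRCm38.p6, Mmp13 is the first of 10 Mmp genes in a row, in the order Mmp13, Mmp12, Mmp1b, Mmp3, Mmp1a, Mmp10, Mmp8, Mmp27, Mmp20 and Mmp7. The start of Mmp13 has the same position number in both builds. In GRCm38.p6, Mmp3 starts at the position number of uc009oco.1, Mmp8 at that of uc009ocr.2, and the first Mmp12 start is at that of uc009och.1. Since the builds differ, the identifiers are kept in the text.

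The start region of Mmp13 is shown because this gene had the highest mean level of the cluster and differed with both the Irf3 vector and the hairpin. The sequence is the RefSeq promoter of GRCm38.p6, 250 bases before to 50 after the start, at chr9:7272264-7272563 on the plus strand. Capitals mark, in order, a RUNX match (letters AACCACA), an AP-1 match (TGAGTCA or TGACTCA) and a TATA match (TATAAA), each searched on both strands.
Mmp13: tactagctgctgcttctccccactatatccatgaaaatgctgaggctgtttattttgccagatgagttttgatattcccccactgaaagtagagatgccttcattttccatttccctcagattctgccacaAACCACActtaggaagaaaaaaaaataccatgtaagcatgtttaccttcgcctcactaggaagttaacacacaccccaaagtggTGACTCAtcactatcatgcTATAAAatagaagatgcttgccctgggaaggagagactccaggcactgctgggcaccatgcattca
AP-1, the Fos and Jun dimer, and RUNX2 are known activators of metalloproteinase promoters. The AP-1 letters began 35 bases before the start and the RUNX letters 119 bases before it. Of all 32851 promoters in the table, 5.20% held the AP-1 letters, 5.27% the RUNX letters and 13.6% the TATA letters.

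Of the 5 genes named for the interval, 4 held the AP-1 letters in a promoter, namely Mmp13, Mmp12, Mmp3 and Mmp10, and Mmp8 had none in its window. Counted by promoter, as the share over all promoters is, 4 of 6 held them. The promoter at the first Mmp12 start had none. Matches were not listed for Mmp1b, Mmp1a, Mmp27, Mmp20 and Mmp7, the other Mmp genes in the row. These counts therefore do not cover the whole cluster. The next lines give 60 bases around the AP-1 letters for the other promoters of the 5 genes with a match (GRCm38.p6, plus strand). They show that the letters are shared while their surroundings differ. Capitals mark the AP-1 letters and any TATA letters.
Mmp12, second start, chr9:7347320-7347379: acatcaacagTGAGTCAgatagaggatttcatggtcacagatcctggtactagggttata
Mmp3, chr9:7445766-7445825: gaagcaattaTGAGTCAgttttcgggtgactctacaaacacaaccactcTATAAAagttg
Mmp10, chr9:7502269-7502328: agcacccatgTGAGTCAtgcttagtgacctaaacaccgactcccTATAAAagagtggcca
The AP-1 letters began 44 bases before the second Mmp12 start, 46 before the Mmp3 start and 63 before the Mmp10 start. RUNX letters were found in 1 of the 5 genes, Mmp13. All 5 genes held TATA letters, in 5 of 6 promoters, with none at the first Mmp12 start. In Mmp8 they were on the minus strand, beginning 3 bases before the start. In Mmp12 they began after the second start and run past the end of its printed line. A letter match is a description and no evidence of binding.

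Members differed widely in level. Per length, as counts scaled to library size (CPM) divided by exon length in kilobases (RPKM) and averaged over the 18 libraries, Mmp13 stood at 27.6 and uc009oco.1 at 20.5, followed by uc009oct.1 at 4.33, uc009och.1 at 1.34 and uc009ocr.2 at 0.510. The remaining members, uc009ocq.1, uc009ock.1 and uc009ocp.1, averaged 0.0996, 0.0384 and 0.0278 RPKM. These 3 did not pass the low-count filter, so 5 of the 8 members were tested in each arm. In the knockdown arm uc009ocr.2 passed through groups other than shLuc, where it had 11 counts over 3 libraries. In bulk RNA, fewer cells of a type and less RNA per cell cannot be told apart. The exons of uc009och.1 and uc009ock.1 share 157 bases on opposite strands, and the library kit does not mark strand.

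**Figure D1:**
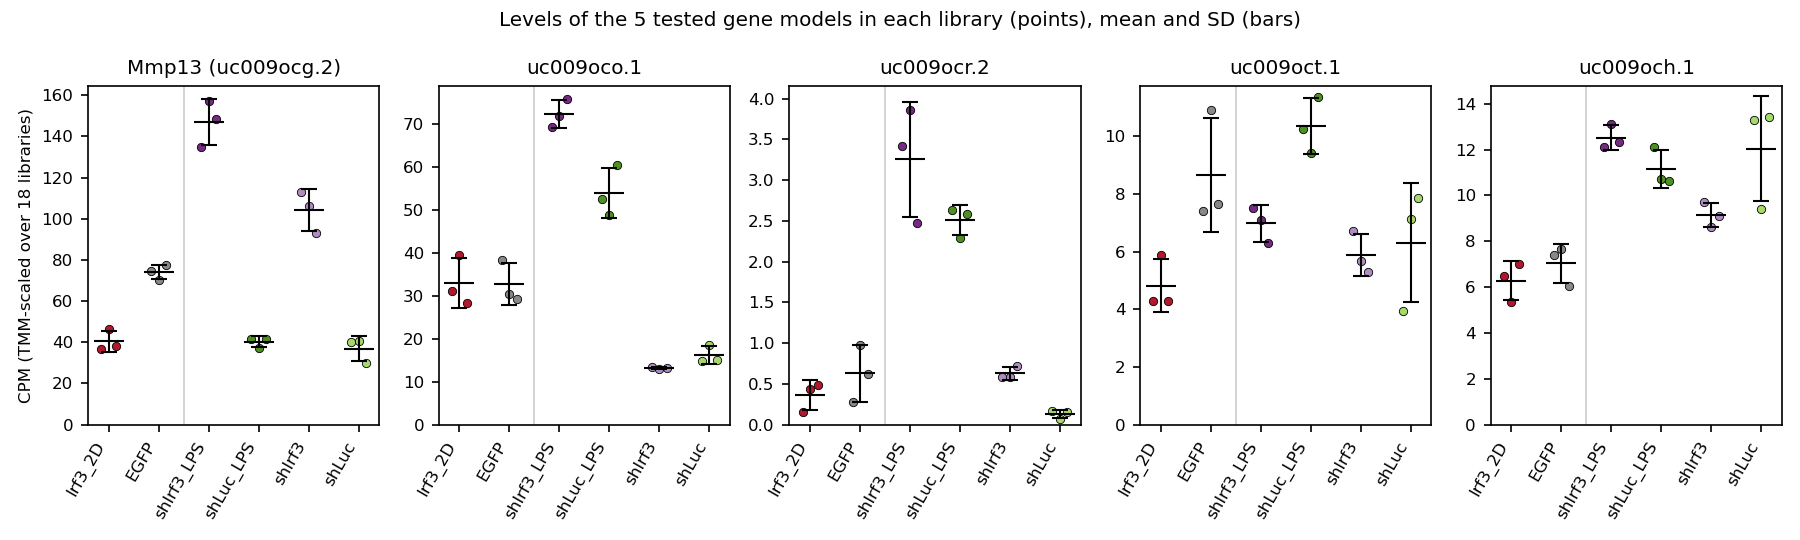
Each panel plots 1 tested gene model in CPM (vertical axis from 0) for 6 groups of 3 libraries. Points are libraries, and bars give the mean and SD. Mmp13 separates by hairpin, with every shIrf3 library above every shLuc library, and uc009oco.1 by LPS.

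Mmp13, the collagenase-3 gene, was lower with Irf3 overexpression and higher with Irf3 knockdown. In Irf3_2D libraries 1 to 3 it had 36.7, 46.3 and 38.1 CPM, against 74.9, 70.4 and 77.4 CPM in EGFP libraries. Every Irf3_2D library lay below every EGFP library. The fitted log2 fold change was -0.88 with a standard error of 0.13, a 1.84-fold lower level (edgeR quasi-likelihood test, Benjamini-Hochberg adjusted p = 0.0196). With a call defined as an adjusted p under 0.05, it was the one member called lower of 5 tested, and 0 were called higher, where 0.639% of all gene models were called lower and 0.811% higher. The call ended without Irf3_2D replicate 1 or 3 or EGFP replicate 2 or 3, with edgeR adjusted p-values from 0.0739 to 0.142. It held without EGFP replicate 1 (edgeR adjusted p = 0.0272) and without Irf3_2D replicate 2 (0.000122). The log2 fold change stayed between -0.997, without Irf3_2D replicate 2, and -0.82 whichever library was left out.

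With the hairpin against Irf3 and no LPS, Mmp13 had 113.2, 106.0 and 93.0 CPM in shIrf3 libraries, against 39.9, 40.7 and 29.7 CPM in shLuc libraries. The groups did not overlap. The log2 fold change was 1.49 ± 0.11 (SE), a 2.80-fold higher level (edgeR adjusted p = 4.19e-06). In the fitted changes of 14970 gene models it ranked 32nd from the top. It was 1.57, 1.55 and 1.36 without shLuc replicates 1, 2 and 3, and the call held each time. The overexpression and knockdown comparisons share no library, and the sign of the Mmp13 change was opposite in them. Each sign is against the control of its own arm, and Mmp13 in these controls averaged 74.2 CPM (EGFP) and 36.8 CPM (shLuc).

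Under LPS the same direction was seen, and the value is a description because the cluster was proposed with it known. Mmp13 had 135.1, 157.2 and 148.7 CPM in shIrf3_LPS libraries, against 41.8, 37.1 and 41.7 CPM in shLuc_LPS libraries. On the log2 scale the difference was 1.90 ± 0.11 (SE), or 3.72-fold.

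The LPS difference of Mmp13 in control cells did not pass the test. The shLuc_LPS libraries had 41.8, 37.1 and 41.7 CPM, against 39.9, 40.7 and 29.7 CPM in shLuc libraries. The groups overlapped through shLuc_LPS replicate 2, with a log2 difference of 0.13 ± 0.11 (SE, edgeR adjusted p = 0.558). Leaving out 1 library moved this difference between 0.0052, without shLuc replicate 3, and 0.21, without shLuc replicate 1, and it was not called in any of these fits. In knockdown cells, shIrf3_LPS libraries at 135.1 to 157.2 CPM all lay above shIrf3 libraries at 93.0 to 113.2 CPM, and the log2 difference was 0.54 ± 0.10 (SE, edgeR adjusted p = 0.00346). The difference between these LPS responses, the interaction, was 0.41 ± 0.15 (SE) on the log2 scale (edgeR adjusted p = 0.769). The LPS response of Mmp13 was thus not shown to differ by hairpin. These comparisons use the shIrf3_LPS or shLuc_LPS libraries, whose Mmp13 difference was known when the cluster was proposed. Their p-values for Mmp13 are therefore a description as well.

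Group means of Mmp13 were 40.4 ± 5.19 CPM in Irf3_2D and 74.2 ± 3.51 in EGFP, 147 ± 11.1 in shIrf3_LPS and 40.2 ± 2.70 in shLuc_LPS, and 104.1 ± 10.3 in shIrf3 and 36.8 ± 6.12 in shLuc (SD, n = 3 each). In order of level, shIrf3_LPS, shIrf3 and EGFP did not overlap with each other or with any lower group, while Irf3_2D, shLuc_LPS and shLuc overlapped as neighbours.

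**Figure D2:**
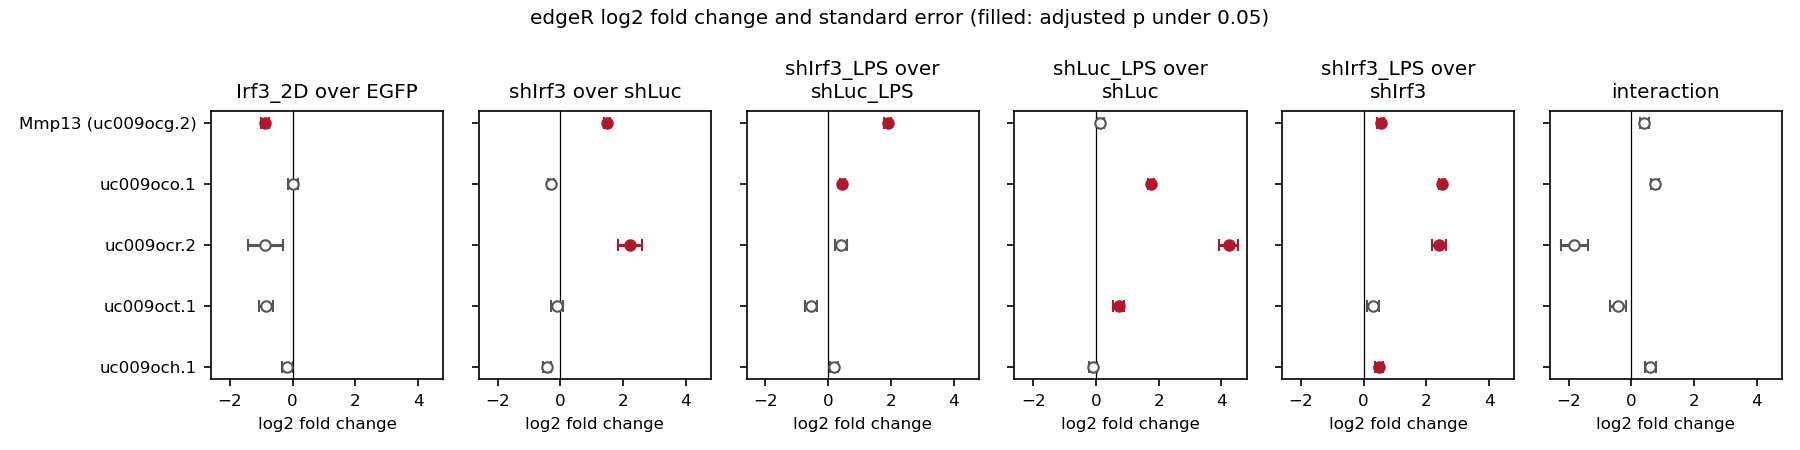
Each panel gives, for 1 comparison, the edgeR log2 fold change (horizontal axis) of the 5 tested members with its standard error, filled where the adjusted p was under 0.05. Mmp13 is at -0.88 for Irf3_2D over EGFP and at 1.49 for shIrf3 over shLuc, whereas uc009oco.1 is at 0.01 and -0.31.

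The gene model uc009oco.1, the next most abundant member per length, followed LPS. It had 52.6, 48.8 and 60.4 CPM in shLuc_LPS libraries, against 14.9, 18.5 and 15.0 CPM in shLuc libraries. The groups did not overlap. The log2 fold change reached 1.75 ± 0.09 (SE), or 3.36-fold (edgeR adjusted p = 1.29e-09). In knockdown cells it had 69.3, 71.9 and 75.8 CPM in shIrf3_LPS libraries, against 13.5, 12.8 and 13.2 CPM in shIrf3 libraries. On the log2 scale this was 2.50 ± 0.09 (SE), or 5.67-fold (edgeR adjusted p = 1.18e-11).

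Without LPS, the hairpin difference of uc009oco.1 was -0.31 ± 0.10 (SE, edgeR adjusted p = 0.0590) on the log2 scale, with all shIrf3 libraries below all shLuc libraries. DESeq2 gave an adjusted p of 0.0497 for it, and edgeR one of 0.0208 without shLuc replicate 1 and 0.0492 without shLuc_LPS replicate 3. Under LPS uc009oco.1 was higher in the knockdown, at 0.45 ± 0.09 (SE, edgeR adjusted p = 0.00390), a call that ended with all 18 libraries in 1 fit (adjusted p = 0.0859). The LPS response in knockdown cells minus that in control cells was 0.75 ± 0.13 (SE) on the log2 scale. That interaction missed the threshold in edgeR (adjusted p = 0.166), and passed it in DESeq2 (adjusted p = 0.00183), in edgeR with no low-count filter (0.0183) and in edgeR without shLuc replicate 1 (0.0231) or 2 (0.0277).

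In the overexpression arm uc009oco.1 did not separate the groups. It had 31.1, 39.5 and 28.4 CPM in Irf3_2D libraries, against 38.4, 30.4 and 29.3 CPM in EGFP libraries. On the log2 scale the difference was 0.01 ± 0.17 (SE, edgeR adjusted p = 0.996), where Mmp13 in the same libraries was at -0.88.

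The gene model uc009ocr.2 was low without LPS, rose with LPS, and in the absence of LPS rose with the hairpin. Its counts were 78, 73 and 76 in shLuc_LPS libraries, against 5, 2 and 4 in shLuc libraries. The fitted log2 fold change was 4.23 ± 0.31 (SE), or 18.7-fold. Since the low-count filter kept this gene model through groups other than shLuc, that value is a description, and the test is taken from the fit with no filter, which gave 4.22 (edgeR adjusted p = 4.57e-11). From the summed counts, 227 against 11, the ratio was 19.3 with a 95% interval of 10.6 to 39.1, which covers counting error only.

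In knockdown cells uc009ocr.2 had 111, 102 and 61 counts in shIrf3_LPS libraries, against 14, 18 and 19 in shIrf3 libraries. That difference was 2.42 ± 0.22 on the log2 scale (SE, edgeR adjusted p = 2.23e-06). Without LPS its level was 0.629 ± 0.0774 CPM in shIrf3 libraries and 0.130 ± 0.0515 CPM in shLuc libraries (SD, n = 3 each), and the log2 difference came to 2.22 ± 0.39 (SE). The fit with no filter gave 2.22 for it (edgeR adjusted p = 0.000942). Under LPS the hairpin groups overlapped, at 2.48 to 3.86 CPM in shIrf3_LPS and 2.29 to 2.64 CPM in shLuc_LPS (log2 fold change 0.41 ± 0.18 SE, edgeR adjusted p = 0.200). The interaction was -1.81 ± 0.44 (SE) and was not called (edgeR adjusted p = 0.489). With Irf3 overexpression the counts were 5, 9 and 13 in Irf3_2D libraries, against 7, 29 and 14 in EGFP libraries, which overlap (edgeR adjusted p = 0.691).

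The gene model uc009oct.1 rose with LPS in control cells, to 10.2, 9.43 and 11.4 CPM in shLuc_LPS libraries, against 3.95, 7.12 and 7.86 CPM in shLuc libraries. The low value of 3.95 CPM belongs to shLuc replicate 1, the library with the highest mitochondrial share. LPS gave a log2 difference of 0.72 ± 0.19 (SE, edgeR adjusted p = 0.0217), or 0.48 without shLuc replicate 1, where the call held (adjusted p = 0.0227). The call ended without shLuc_LPS replicate 1 (adjusted p = 0.0722) or 3 (0.102), and in a fit of the 6 libraries compared (0.113) or of all 18 (0.0514).

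In knockdown cells the uc009oct.1 groups overlapped, at 6.29 to 7.52 CPM in shIrf3_LPS and 5.29 to 6.71 CPM in shIrf3 (log2 fold change 0.30 ± 0.19 SE, edgeR adjusted p = 0.405). With Irf3 overexpression it had 4.28, 5.88 and 4.28 CPM in Irf3_2D libraries, against 7.41, 10.9 and 7.65 CPM in EGFP libraries. These did not overlap, but the log2 difference, -0.86 ± 0.22 (SE), missed the threshold in edgeR (adjusted p = 0.122). It passed in DESeq2 (0.0135), in edgeR with all 18 libraries in 1 fit (0.0167) and in edgeR without Irf3_2D replicate 2 (0.00881). Under LPS, shIrf3_LPS libraries all lay below shLuc_LPS libraries, by -0.54 ± 0.18 on the log2 scale (SE, edgeR adjusted p = 0.0896). That value passed in DESeq2 (0.0470), in a fit of the 6 libraries compared (0.00184) and without shLuc replicate 1 (0.00489).

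The group means of uc009och.1 lay between 6.28 ± 0.858 CPM in Irf3_2D and 12.5 ± 0.532 CPM in shIrf3_LPS (SD, n = 3 each). It was called for LPS in knockdown cells, with 12.1, 13.1 and 12.3 CPM in shIrf3_LPS libraries, against 9.70, 8.64 and 9.11 CPM in shIrf3 libraries. That difference was 0.50 ± 0.13 on the log2 scale (SE, edgeR adjusted p = 0.0225). This call ended without shIrf3 replicate 2 or 3, without any single shIrf3_LPS library, and with all 18 libraries in 1 fit, with edgeR adjusted p-values from 0.0565 to 0.101. Without LPS its hairpin difference was -0.41 ± 0.13 on the log2 scale (SE, edgeR adjusted p = 0.0569). It passed in DESeq2 (0.0349), in edgeR with no low-count filter (0.0434) and in edgeR without shLuc replicate 2 (0.00137), the shLuc library with the lowest uc009och.1 level, 9.39 CPM. Its interaction of 0.61 ± 0.18 (SE, edgeR adjusted p = 0.739) passed in edgeR without that library, at 0.78 (adjusted p = 0.0277).

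Counted over the 5 tested members, knockdown had 2 higher and 0 lower, namely Mmp13 and uc009ocr.2, where 4.65% of all 14970 gene models were called higher and 3.91% lower. Knockdown under LPS had 2 higher and 0 lower, Mmp13 and uc009oco.1, beside 4.90% and 3.31% of all, a count from which nothing is read for Mmp13. LPS in control cells had 3 higher and 0 lower, against 4.27% and 4.45%, and LPS in knockdown cells 4 higher and 0 lower, against 4.17% and 3.84%. The interaction had 0 called members and 0.00% of all called in either direction in edgeR. At an unadjusted p under 0.05, 4 members and 848 of all gene models passed for the interaction, DESeq2 called 12 gene models, among them uc009oco.1, and limma-voom called 0. The median log2 fold change of the 5 members was 0.72 for LPS in control cells and 0.54 for LPS in knockdown cells, beside -0.01 and 0.00 over all gene models. It was -0.11 for knockdown, 0.41 for knockdown under LPS and -0.86 for overexpression, beside -0.02, 0.00 and 0.02. Knockdown and LPS in control cells share the shLuc libraries, and the other comparisons of the arm share groups in the same way. Because members passed the filter partly through the groups where they are high, these counts and medians are a description.

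The least abundant members gave few reads. Summed over 3 libraries, uc009ocq.1 had 19 counts in shIrf3_LPS, against 2 in shLuc_LPS, a ratio of 10.3 (95% counting interval 2.49 to 91.4). It had 2 counts in shLuc_LPS, against 11 in shLuc, a ratio of 0.170 (interval 0.0183 to 0.777). In the fit with no low-count filter, over 21442 gene models, the edgeR adjusted p of uc009ocq.1 was 0.0368 for knockdown under LPS and 0.228 for LPS in control cells.

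The gene model uc009ocp.1 had 15 counts in shIrf3_LPS, against 2 in shLuc_LPS, a ratio of 8.15 (interval 1.90 to 73.5), with an edgeR adjusted p of 0.0981 in the fit with no filter. It had 0 counts over the Irf3_2D libraries, which allows up to 3, against 7 over the EGFP libraries. Of these 7, EGFP replicate 1 gave 5, and the edgeR adjusted p with no filter was 0.464. The gene model uc009ock.1 had between 2 and 10 counts per group, too few to compare at this depth. How the counting treated reads that match more than 1 related gene is not given in the sources used here, so levels of related members are uncertain to that extent.

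**Figure D3:**
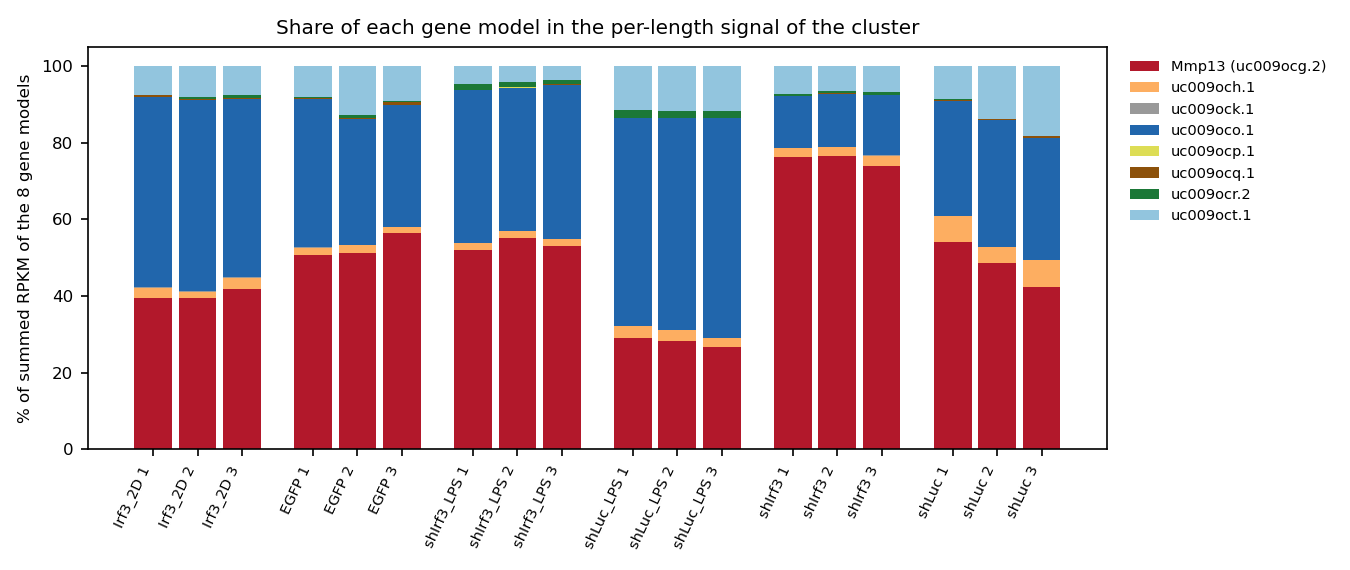
Each bar is 1 library, split into the percent that each member holds of the summed RPKM of the 8 members. Mmp13 holds 74.0% to 76.5% in shIrf3 libraries and 26.6% to 29.0% in shLuc_LPS libraries.

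The make-up of the cluster differed between groups, which is given here as a description. Mmp13 held 53.5% ± 1.56 of the summed RPKM in shIrf3_LPS, 27.9% ± 1.21 in shLuc_LPS, 74.0% to 76.5% in the 3 shIrf3 libraries and 48.4% ± 5.89 in shLuc (SD, n = 3 each). The share of uc009oco.1 was 39.2% ± 1.46 in shIrf3_LPS, 55.6% ± 1.55 in shLuc_LPS, 13.5% to 15.6% in the 3 shIrf3 libraries and 31.6% ± 1.53 in shLuc. In the other arm Mmp13 held 40.3% ± 1.43 in Irf3_2D and 52.7% ± 3.14 in EGFP. The summed level of the cluster was 102.7 ± 5.06 RPKM in shIrf3_LPS, 53.9 ± 4.72 in shLuc_LPS, 51.4 ± 4.28 in shIrf3 and 28.3 ± 2.57 in shLuc, and 37.5 ± 5.48 in Irf3_2D and 52.7 ± 2.25 in EGFP.

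Across the 18 libraries, log2 CPM of Mmp13 and uc009oco.1 had a Pearson's r of 0.209 and a Spearman's rho of 0.224, while uc009oco.1 and uc009ocr.2 had 0.735 and 0.629. These are descriptions over libraries that share groups and arms.

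**Figure D4:**
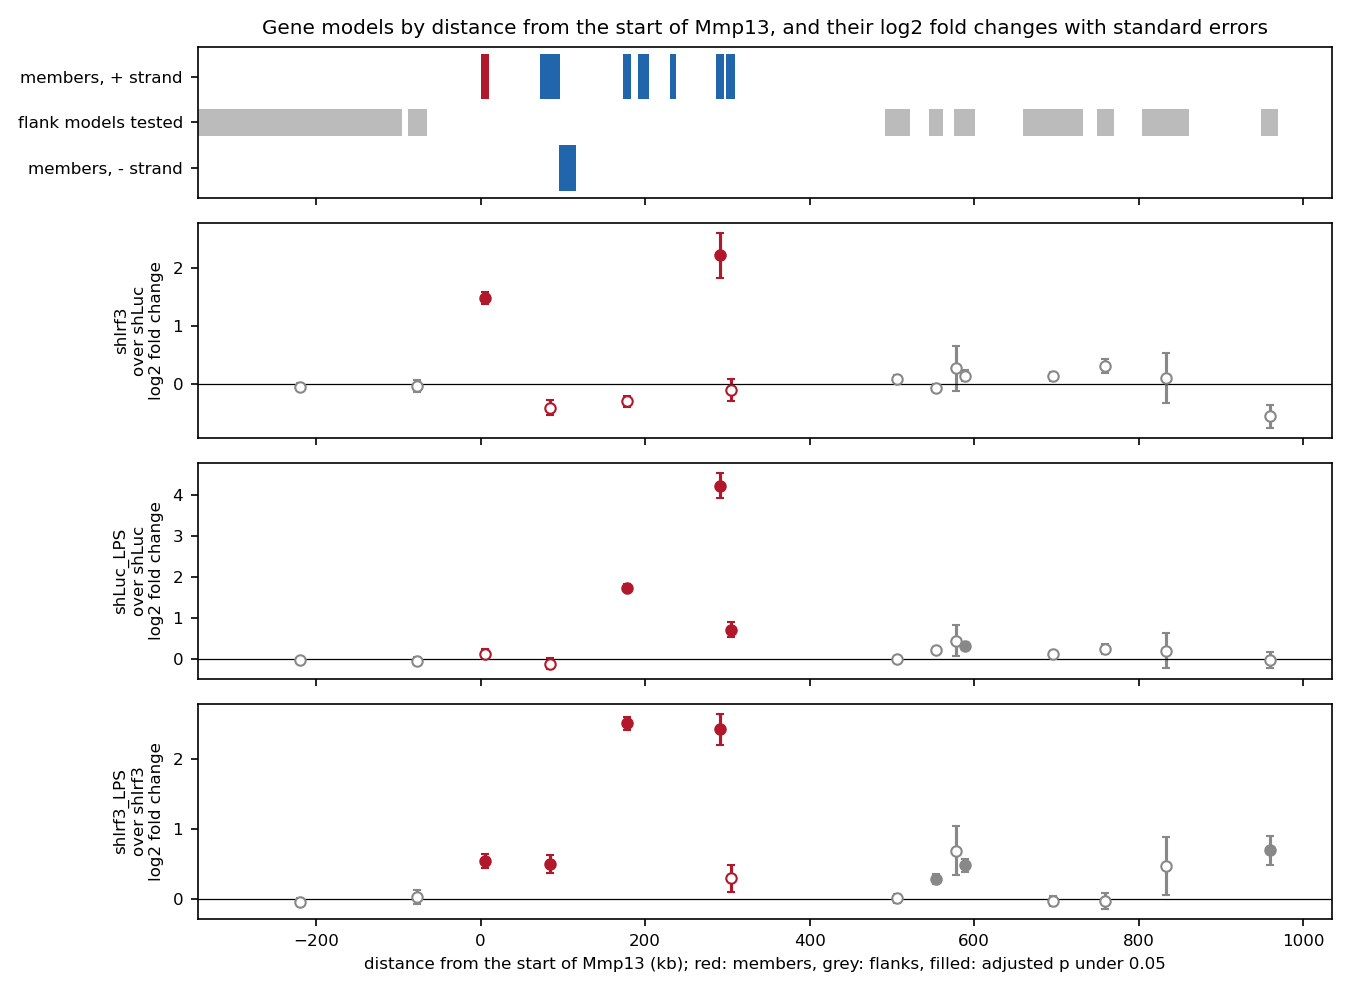
The top panel maps the 8 members and the tested flanking gene models by distance in kb from the start of Mmp13, and the lower panels give log2 fold changes with standard errors for 3 comparisons. Members reached 4.23, and flanking gene models lay between -0.57 and 0.70, a range that holds several of the members.

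The gene models around the cluster were counted in the same way, and their difference from the members was not tested. Within 1000000 bases on either side lay 15 gene models, of which 10 were tested in the knockdown arm and 9 in the overexpression arm. None of them was called by edgeR for overexpression, for either knockdown comparison or for the interaction. Of all gene models, 0.811% were called higher and 0.639% lower for overexpression, and 4.65% and 3.91% for knockdown. The shares were 4.90% and 3.31% for knockdown under LPS, and 0.00% for the interaction. With 9 or 10 gene models tested, the absence of calls is near these shares. For LPS in control cells 1 of 10 was higher, where 4.27% of all gene models were, namely uc009odc.1 (7848701 to 7873170), by 0.32 ± 0.10 on the log2 scale (SE, edgeR adjusted p = 0.0476). For LPS in knockdown cells 3 of 10 were higher and 0 lower, where 4.17% of all were higher and 3.84% lower, the nearest being uc009ocz.2 (7818226 to 7835255) at 0.29 ± 0.07 (SE, edgeR adjusted p = 0.0141). Flanking log2 fold changes ran from -0.16 to 0.26 for overexpression, where Mmp13 was at -0.88, and from -0.57 to 0.31 for knockdown, where Mmp13 was at 1.49. Under LPS the knockdown range was -0.06 to 0.50, which reached above uc009oco.1 at 0.45. For LPS in control cells the range was -0.05 to 0.46. In knockdown cells it was -0.04 to 0.70 for LPS, which reached above Mmp13 at 0.54 and uc009och.1 at 0.50.

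Outside the interval, the gene models whose log2 CPM over the 18 libraries was most like that of Mmp13, among 12570 ranked, were uc009ozt.1 on chromosome 9 (40494047 to 40592264), uc007qvx.2 on chromosome 13 (61035516 to 61037986) and uc009lgv.2 on chromosome 8 (26835796 to 26864885). Their Pearson correlations were 0.854, 0.844 and 0.840, where the median over all ranked gene models was -0.0176 and the 99th percentile 0.608. The gene model uc009ozt.1 had 44.0 ± 1.58 CPM in shIrf3_LPS, 32.1 ± 1.87 in shLuc_LPS, 41.2 ± 0.731 in shIrf3 and 25.5 ± 3.96 in shLuc (SD, n = 3 each). In the overexpression arm it had 30.4 ± 4.32 CPM in Irf3_2D and 31.7 ± 2.76 in EGFP, where Mmp13 had 40.4 and 74.2. There uc007qvx.2 had 10.1 ± 1.42 and 9.93 ± 1.27 CPM, and uc009lgv.2 had 68.3 ± 3.38 and 75.8 ± 11.9. The likeness therefore lies mainly in the knockdown arm, and was not tested by arm.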

How the data were processed

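RNA was sequenced from 18 libraries in 6 groups of 3, grouped by sample title. Libraries came from 70 ng of total RNA after Ribo-zero treatment with the TruSeq RNA v2 kit, per the labels' protocols, and do not mark strand. The authors deposited raw counts of reads, 1 row per gene model. Per the submitters' processing notes, the tools were featureCounts 1.4.6, SAMtools 0.1.19, TopHat2 2.0.14, bcl2fastq 2.17.1.14, edgeR and Picard 2.2.4, and the build was mm9, with no settings named. Exon positions and lengths are the authors', per the file headers.

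Counts were fitted with edgeR 4.0.16 in R 4.3.3 (filterByExpr by group, TMM, glmQLFit with robust estimation, glmQLFTest), once for the 6 libraries of the overexpression arm and once for the 12 of the knockdown and LPS arm, with Benjamini-Hochberg adjustment over all gene models tested and a threshold of 0.05. Standard errors are the size of the log2 fold change over the square root of F. Printed CPM and RPKM use TMM factors over all 18 libraries, and log2 CPM a prior count of 2. Ratios of summed counts carry exact binomial 95% intervals. Simulated counts were used to test the edgeR step. Replicates of a group differed beyond sampling noise (chi-square over its degrees of freedom, 3.38 to 349.9). None was therefore counted as a repeat sequencing of the same library. This does not show that the replicates were separate cultures.

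All members are named. Likeness to Mmp13 took the 3 highest correlations among gene models with a mean of at least 1 CPM, and flanks were named as the called ones nearest to the interval. The members, lists and tests were chosen with earlier results of these data known. Lists of inhibitors, substrates, regulators and cell type markers could not be matched to identifiers, and no result of them is given. Each library was left out in turn. Other alternatives changed the fit (the libraries compared only, all 18 in 1 fit, the replicate number as a block), the filter (none, or at least 1 CPM in 3 libraries), the scaling (RLE, totals alone), the tool (limma-voom with limma 3.58.1, DESeq2 1.42.0) or the gene models (chromosome M removed).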

Additional observations from a re-analysis of the deposited data

How the results depend on the processing

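The direction of the Mmp13 change and its side of the threshold were the same in every alternative run for knockdown, both LPS comparisons and the interaction. Mmp13 comparisons with an LPS group are descriptions. For knockdown under LPS, the Mmp13 log2 fold change ran from 1.84 to 1.95 with a library left out. For overexpression the Mmp13 call ended in 4 of the 6 fits with a library left out, where its log2 fold change ran from -0.997 to -0.82 over all 6. Leaving libraries out, members called ranged from 0 to 2 for overexpression and from 0 to 2 for the interaction. DESeq2 called 2 members for overexpression, 4 for knockdown (2 of them lower) and 1 for the interaction. With all 18 libraries in 1 fit, 2 were called for overexpression and 1 for knockdown under LPS, and with no low-count filter 1 was called for the interaction. The cause was not tested. Uncalled values near 0 changed sign for uc009oco.1 in overexpression (-0.0033 in limma-voom, -0.15 to 0.14 with a library left out) and for uc009oct.1 in knockdown (-0.35 to 0.081 with a library left out).

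Replicates with the same number did not deviate together, with 1 of 21 correlations above 0.1 (range -0.187 to 0.225), so the numbers were not taken as pairs. With the replicate number as a block the Mmp13 log2 fold change was -0.89 for overexpression, 1.49 for knockdown and 1.90 for knockdown under LPS, and no count of called members changed. The calls over all gene models moved as well. Leaving out 1 library gave 5 to 1021 for overexpression (202 with all libraries), 510 to 2744 for knockdown (1281), 536 to 2239 for knockdown under LPS (1228), 805 to 2132 for LPS in control cells (1305), 706 to 2231 for LPS in knockdown cells (1199) and 0 to 16 for the interaction (0). The other alternatives gave 185 to 942, 386 to 1558, 378 to 2848, 668 to 1512, 621 to 2890 and 0 to 12 in the same order. With library totals only, higher calls made up 67.1%, 71.9% and 65.4% for knockdown and for LPS in control and knockdown cells, beside 54.3%, 49% and 52% with TMM. Depth limits the 3 members with 27 to 82 summed counts, and a minimum of 1 CPM in 3 libraries left no value for uc009ocr.2 in overexpression.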

Other observations

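The control vectors of the arms differed in the level of both abundant members. Mmp13 averaged 74.2 ± 3.51 CPM in EGFP and 36.8 ± 6.12 CPM in shLuc, and uc009oco.1 averaged 32.7 ± 4.96 CPM in EGFP and 16.1 ± 2.09 CPM in shLuc (SD, n = 3 each), with no overlap between the libraries of these groups. Among the other tested members, uc009och.1 was lower in EGFP, at 6.05 to 7.65 CPM, than in shLuc, at 9.39 to 13.4 CPM. The gene model uc009ocr.2 was higher in EGFP, at 0.282 to 0.981 CPM, than in shLuc, at 0.0709 to 0.167 CPM. For uc009oct.1 the libraries of these groups overlapped. The share of all gene models that separate EGFP from shLuc was not counted. Vector and arm cannot be told apart here, and these differences were not tested.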
